A study of Mus musculus with 9 samples.

Results

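Actin cytoskeleton and integrin genes were described across the thalamus of 3 groups of mice, called sham, stroke and mmpp in the labels, with 3 samples each. All 9 samples carried the WT genotype and were taken on day 7. The study concerns photothrombotic stroke in C57/BL mice, in which a light-activated dye clots vessels, and the injection of a melanin nanozyme, that is, melanin particles that act like an enzyme. The labels do not spell out mmpp, and they do not give ages, which groups were injected, or how many animals stand behind a sample. Members were the genes that either of the authors' tables assigns to the KEGG pathway for regulation of the actin cytoskeleton, or that are named as integrin chains, Arpc subunits or Actb. Genes that the tables also assign to axon guidance were left out unless their names begin with Itg, as were Itgax, Rac2, Cd14 and Fn1. This gave 53 of the 4277 genes listed in either table, 48 through the pathway and 5 through their names alone. Of these, 50 were listed for stroke against sham, 11 for mmpp against stroke and 8 for both.

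Actin filaments are polymers of actin that push the cell edge forward, carry tension and shape phagocytic cups. The Arp2/3 complex starts branched filaments when WASP and WAVE proteins activate it, and small GTPases such as Rac, switched on by exchange factors, control those proteins. Integrins are pairs of an alpha and a beta chain that span the membrane and tie the filaments to matrix or to other cells. In brain, microglia and blood leukocytes use beta 2 integrins for adhesion and phagocytosis, while neurons use actin in dendritic spines and growth cones.

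Values are the authors' group means in TPM, in which counts are scaled by gene length and by the total of the library. No value per sample was analysed here, so no spread can be given beside a mean, and depth is unknown. A gene is said to have risen or fallen where the authors' q-value, their p-value adjusted for multiple tests, is under 0.05, and is otherwise called listed higher or lower. Every gene in the authors' tables has an unadjusted p under 0.05 and differs at least 2-fold between group means. Being listed is therefore part of how members were chosen, and nothing can be read from the absence of a gene about its level.

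The first comparison asked how these genes differed between stroke and sham thalamus. The listed integrin chains, beta actin and 4 of the 5 listed Arp2/3 subunits rose, apart from a second entry of 1 integrin chain that did not pass. Those that fell were 3 fibroblast growth factor genes, 2 muscarinic receptor genes and the single genes Actr3b, Wasf1, Vav3 and Pip5k1b. In the authors' deposited table, 33 of 50 listed members rose and 9 fell. Of all 4071 genes listed there 49.4% rose and 17.2% fell, which is 9.67% and 3.37% of the 20804 genes whose p-values were adjusted. A further 2 members were listed higher and 6 lower, so that 35 were higher in all and 15 lower, where 60.6% and 39.4% of all listed genes were. The median log2 fold change was 2.01 over the 35 higher members, against 2.34 over all genes listed higher, and -1.41 over the 15 lower members, against -1.31 over all genes listed lower. Since the table was filtered on this contrast, these shares are descriptions. The summed level of the higher members went from 2838 TPM in sham to 11796 TPM in stroke, and that of the lower members from 441.0 to 176.0 TPM.

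**Figure D1:**
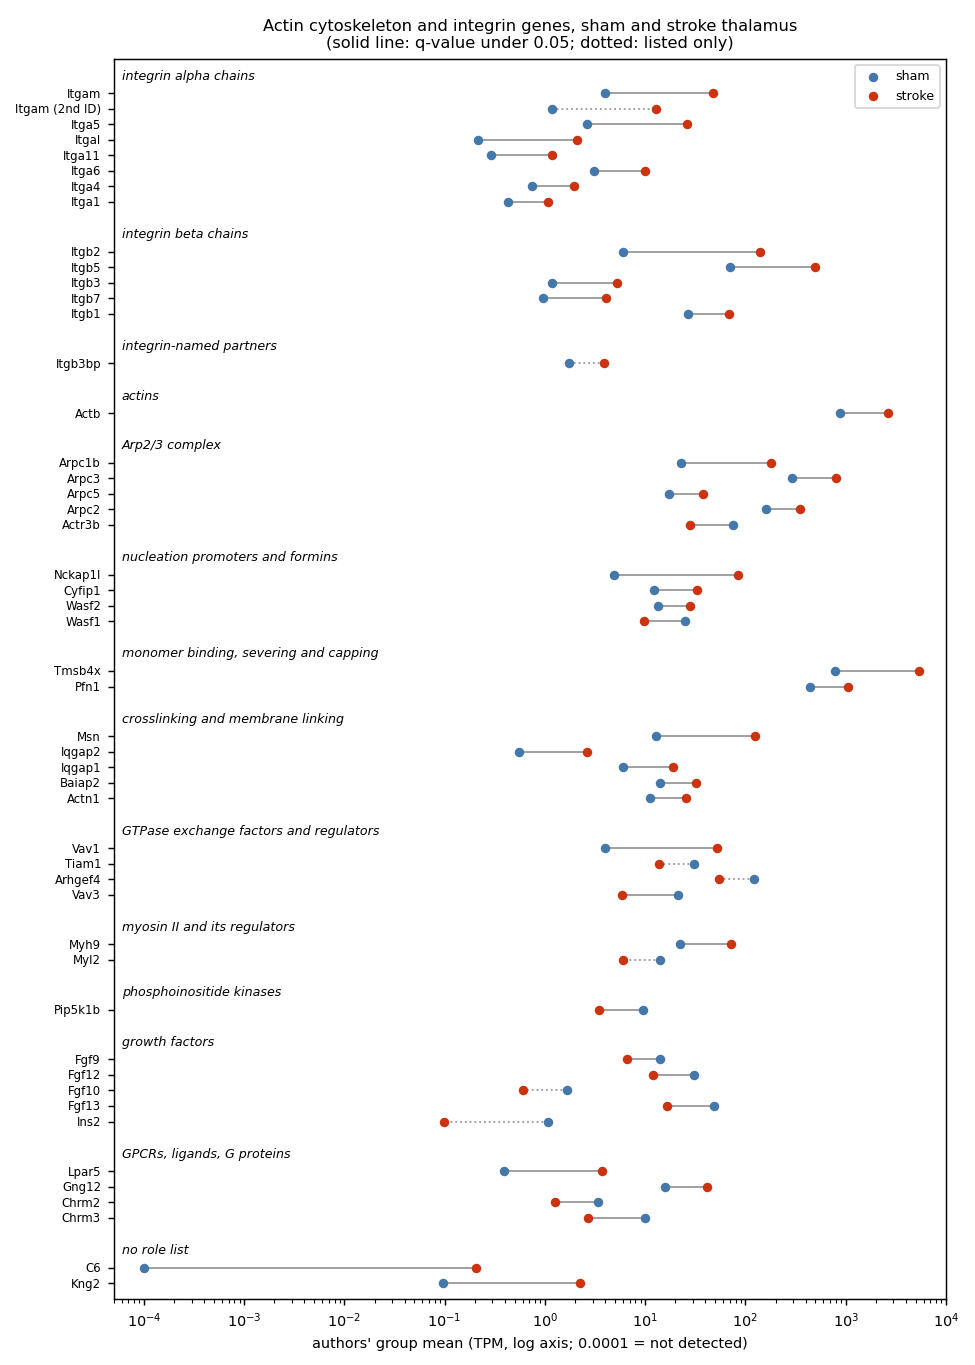
Group mean level in TPM (log axis) of 49 of the 50 members listed for stroke against sham, by role, with sham in blue and stroke in red, 3 samples behind each mean and no error available. Solid lines join the means of genes with a q-value under 0.05. The higher members lie to the right in stroke, with Tmsb4x the highest at 5394 TPM, and the growth factor genes all lie to the left.

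Genes that rise take a larger share of TPM, which lowers all others. The share of TPM held by genes listed higher was 3.42% in sham and 20.6% in stroke, a gain that by itself moves each other gene by -0.28 on the log2 scale. With that shift removed, 8 of the 9 members that fell kept a log2 fold change of at least 1 in size. The exception was Fgf9, a secreted fibroblast growth factor, at -1.10 as deposited and -0.82 with the shift removed.

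Integrin chains were higher throughout. Of 18 alpha chain genes, 8 were listed, including Itgax, which is not a member, and of 8 beta chain genes, 5. No chain was lower in the authors' deposited table. Itgb2 encodes the beta chain shared by the leukocyte integrins. Its mean was 6.04 TPM in sham and 138.5 TPM in stroke. This was a 22.9-fold rise (q = 3.23e-27, authors' deposited table), with the smallest q-value of any member.

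Alpha chains that pair with it include those of LFA-1 and of complement receptor 3. Itgal, the LFA-1 chain, was at 0.213 TPM in sham and 2.08 TPM in stroke and rose 9.76-fold (q = 1.68e-12, authors' deposited table). Itgam, the chain of complement receptor 3 known as CD11b, stands on 2 identifiers. Under ENSMUSG00000030786 it went from 3.99 to 47.4 TPM and rose 11.9-fold (q = 1.95e-08, authors' deposited table). Under ENSMUSG00000108596 the means were 1.17 and 12.96 TPM (q = 0.0536, authors' deposited table), which did not pass. GENCODE release M21 marks that identifier as an overlapping locus named Gm49368, so the reads of the pair may be shared and their separate sizes are uncertain.

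Matrix-binding integrin chains also rose. Itga5, the alpha chain of the fibronectin receptor, went from 2.63 to 26.3 TPM, a 9.98-fold rise (q = 2.75e-24, authors' deposited table). Its partner Itgb1, which pairs with many alpha chains, went from 26.5 to 68.3 TPM and rose 2.57-fold (q = 0.000301, authors' deposited table). The highest integrin mean in both groups was that of Itgb5, a vitronectin receptor chain, at 70.6 TPM in sham and 493.2 TPM in stroke, and it rose 6.99-fold (q = 4.48e-14, authors' deposited table). Itgb3, the beta chain of another vitronectin receptor and of the platelet fibrinogen receptor, rose 4.44-fold from 1.18 TPM. The laminin receptor chain Itga6 rose 3.21-fold from 3.08 TPM (q = 0.000323, authors' deposited table).

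The remaining chains were low in sham. Itgb7, which forms lymphocyte integrins, was at 0.968 TPM in sham and 4.10 TPM in stroke (q = 6.64e-08, authors' deposited table). Itga4, a chain that lymphocytes and monocytes use to bind VCAM-1, was at 0.744 and 1.94 TPM (q = 0.0134, authors' deposited table). Of the collagen receptor chains, Itga11 went from 0.291 to 1.17 TPM (q = 0.00573, authors' deposited table) and Itga1 from 0.425 to 1.08 TPM (q = 0.0474). All 4 rose, though fold sizes against means this low are uncertain. Itgb3bp, named for binding the beta 3 chain and known as a centromere protein, was listed higher at 1.76 and 3.88 TPM (q = 0.119, authors' deposited table). Summed over the 13 listed integrin chain entries, the level was 117.8 TPM in sham and 812.2 TPM in stroke.

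Actin itself and the proteins that hold its monomers were the most abundant members. Tmsb4x, whose product thymosin beta 4 sequesters actin monomers, went from 776.4 TPM in sham to 5394 TPM in stroke, a 6.95-fold rise (q = 1.38e-05, authors' deposited table). Actb, the cytoplasmic beta actin often used as a reference gene, went from 882.9 to 2632 TPM and rose 2.98-fold (q = 0.00115, authors' deposited table). Pfn1, encoding profilin, which feeds monomers to growing ends, went from 445.7 to 1066 TPM (q = 0.0129, authors' deposited table). Actb was the highest member in sham and Tmsb4x in stroke. Such genes have near-identical copies elsewhere in the genome, and how reads that match several genes were counted is not known here, so their levels carry that uncertainty.

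The Arp2/3 complex was split. Arpc1b, a subunit that blood cells use in place of Arpc1a, went from 22.7 to 178.4 TPM and rose 7.85-fold (q = 9.29e-11, authors' deposited table). Arpc3 rose 2.72-fold from 295.0 to 802.0 TPM, Arpc2 2.16-fold from 160.8 to 348.0 TPM and Arpc5 2.18-fold from 17.2 to 37.5 TPM (authors' deposited table, with q-values of 0.00365, 0.00228 and 0.0300). Actr3b, an Arp3 form found in brain, fell from 74.5 to 28.1 TPM, 2.65-fold (q = 0.0226, authors' deposited table). The other 5 of 10 genes of the complex, Actr2, Actr3, Arpc1a, Arpc4 and Arpc5l, were not listed.

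Among activators of Arp2/3, 3 listed members rose and 1 fell. Nckap1l, the blood cell form of a WAVE complex subunit, went from 4.88 to 85.3 TPM, a 17.5-fold rise (q = 5.08e-20, authors' deposited table). Cyfip1, another subunit of that complex, rose 2.68-fold from 12.3 to 32.9 TPM (q = 0.0120, authors' deposited table). Of the WAVE proteins themselves, Wasf2, the form broadly present in blood cells, rose from 13.4 to 28.1 TPM (q = 0.000662, authors' deposited table). Wasf1, the form prominent in brain, fell from 24.9 to 9.78 TPM (q = 0.0489, authors' deposited table), close to the threshold.

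The Vav exchange factors, which switch on Rac and related GTPases, also moved apart. Vav1, the form of blood cells, went from 4.02 to 52.6 TPM and rose 13.1-fold (q = 7.32e-25, authors' deposited table). Vav3 fell from 21.0 to 5.82 TPM, 3.61-fold (q = 0.00303, authors' deposited table). The exchange factors Tiam1, for Rac, and Arhgef4 were listed lower, at 31.0 and 13.9 TPM for the former and 123.2 and 54.0 TPM for the latter, with q-values of 0.152 and 0.164 in the authors' deposited table. These family contrasts were picked out after the values had been seen.

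Crosslinking and membrane linking members were all higher. Msn, encoding moesin, which anchors filaments to the membrane of leukocytes, rose from 12.8 to 123.4 TPM, 9.65-fold (q = 4.98e-13, authors' deposited table). The scaffold genes Iqgap1 and Iqgap2 rose, Iqgap1 3.19-fold from 5.99 TPM and Iqgap2 4.77-fold from 0.546 TPM (authors' deposited table). Actn1, an alpha-actinin that bundles filaments at adhesions, rose 2.29-fold and Baiap2, a membrane-bending Rac effector, 2.31-fold. Myh9, the heavy chain of nonmuscle myosin IIA, rose from 22.1 to 72.6 TPM (q = 5.33e-10, authors' deposited table), while Myl2, a regulatory light chain of cardiac and slow muscle, was listed lower at 14.0 and 6.01 TPM (q = 0.179, authors' deposited table).

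The growth factor genes here include some whose products stay inside the cell. All 5 that were listed were lower and 3 fell. Fgf13 and Fgf12, intracellular relatives of fibroblast growth factors that bind sodium channels in neurons, fell from 48.2 to 16.7 TPM and from 30.9 to 11.998 TPM (q = 0.00931 and q = 0.00923, authors' deposited table). Fgf9 fell from 14.1 to 6.55 TPM (q = 0.00513, authors' deposited table). The growth factor gene Fgf10 and the insulin gene Ins2 were listed lower at q = 0.0800 and q = 0.105 in the authors' deposited table, Ins2 at 1.08 and 0.0977 TPM.

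Among receptors, the muscarinic acetylcholine receptor genes Chrm3 and Chrm2 fell, from 10.01 to 2.70 TPM and from 3.35 to 1.26 TPM (q = 0.0135 and q = 0.0222, authors' deposited table). Lpar5, a lysophosphatidic acid receptor, rose from 0.389 to 3.72 TPM (q = 3.09e-05, authors' deposited table), and the G protein subunit gene Gng12 from 15.9 to 41.4 TPM (q = 0.00526, authors' deposited table). Pip5k1b, a kinase that makes the membrane lipid PIP2, fell from 9.48 to 3.49 TPM (q = 0.00895, authors' deposited table). Kng2, a kininogen gene, rose from 0.0971 to 2.25 TPM (q = 0.000134, authors' deposited table), although its close relative Kng1 makes its reads uncertain. C6, a component of the complement membrane attack complex that the tables also assign to this pathway, was not detected in sham, where 0.0001 TPM stands for 0, and was at 0.204 TPM in stroke (q = 0.00554, authors' deposited table).

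Other genes of the same machinery were read from 18 role lists of 310 genes in all, which include the members. Of these, 95 gene names were listed for stroke against sham, and 49 of them were not members. Of those 49 genes, 39 rose and 5 fell in the authors' deposited table, where 49.4% and 17.2% of all listed genes did. The lists were chosen with earlier results of these data known, so these shares are descriptions. The 49 genes include Itgax, Rac2, Cd14 and Fn1, which were left out of the members by name and which all rose. In branching and formins the leukocyte adaptor Hcls1 rose 18.8-fold and Was, the gene of the Wiskott-Aldrich syndrome protein, 12.7-fold. In capping and bundling Capg rose 28.9-fold to 315.7 TPM, the bundling protein gene Lcp1 27.0-fold to 149.4 TPM and the scaffold gene Iqgap3 34.8-fold from 0.218 TPM (authors' deposited table). In the same lists Pls1, another bundling protein gene, fell from 4.99 to 2.05 TPM (q = 0.0127, authors' deposited table) and Vil1, of the severing protein villin, from 3.95 to 1.64 TPM (q = 0.0460). Cap2, which binds actin monomers, was listed lower at 43.7 and 20.1 TPM (q = 0.0595, authors' deposited table).

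**Figure D2:**
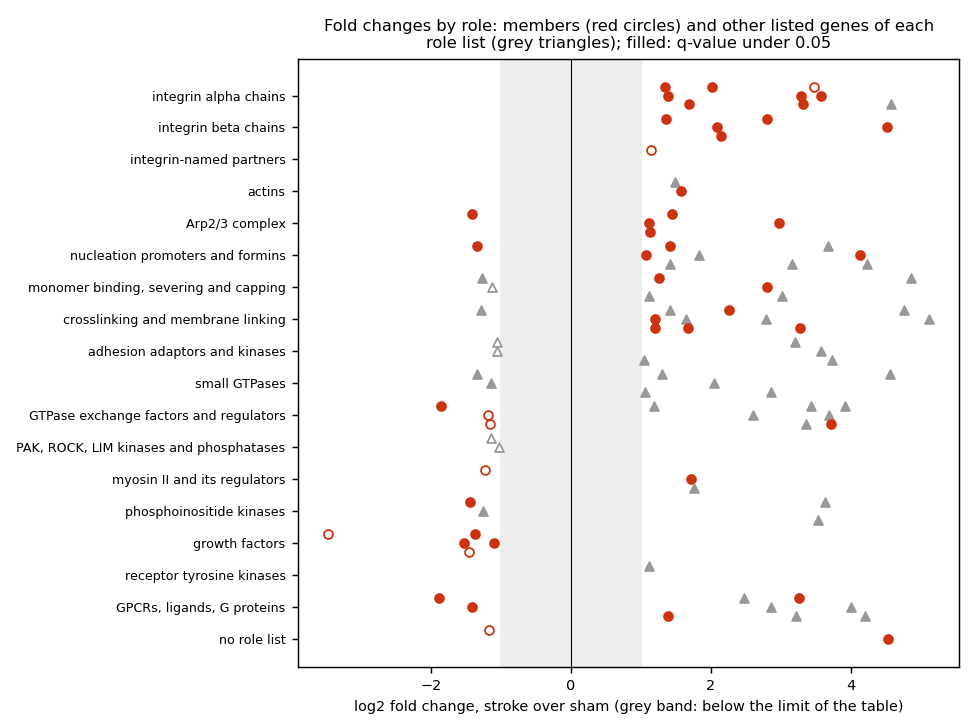
Log2 fold change of stroke over sham for the members (red circles) and the other listed genes of each role list (grey triangles), 1 row per role, filled where the q-value is under 0.05. C6 is not drawn, since it was not detected in sham. Integrin chains lie only on the higher side and growth factors only on the lower side, whereas nucleation promoters and GTPase regulators lie on both.

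Of 6 listed adhesion adaptor and kinase genes 4 rose and none fell. Lpxn, Fermt3 and Parvg, leukocyte adaptors that link integrins to actin, rose by 13.3, 11.9 and 9.23 times (authors' deposited table), and Pxn, the gene of paxillin, by 2.07 times. Tln2, a talin of brain and muscle, was listed lower at 44.1 and 21.1 TPM (q = 0.145, authors' deposited table), as was the kinase gene Src at 67.3 and 32.4 TPM (q = 0.126). Of 7 listed small GTPase genes 5 rose, and Rac3 of neurons and Rnd1 fell, Rac3 from 104.6 to 41.2 TPM (q = 0.00121, authors' deposited table). The leukocyte exchange factor Dock2 rose 15.1-fold and its relative Dock8 10.8-fold (authors' deposited table), and the PI3 kinase subunits of blood cells Pik3r5 and Pik3cg rose by 11.5 and 12.3 times. Pak1 and Limk2 were the only listed genes of 13 PAK, ROCK and LIM kinase genes and their phosphatases, both lower (q = 0.0845 and q = 0.146, authors' deposited table). None of 14 Ras and MAP kinase genes was listed. Over all genes, 4071 of the 20804 adjusted were listed, and nothing is read from these counts.

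Many other pathways that the tables assign to the members held genes of both directions. Focal adhesion was assigned to 11 of the 35 higher and 4 of the 15 lower members, Rap1 signalling to 7 and 8, Fc gamma R-mediated phagocytosis to 6 and 5, and pathways in cancer to 5 and 5. Others lay mostly on 1 side. Calcium signalling was assigned to 6 lower members and no higher one, these being the 4 listed Fgf genes and both muscarinic receptor genes, and Ras signalling to 7 lower members and 1 higher one. ECM-receptor interaction was assigned to 8 higher members, all of them integrin chains, and phagosome to 6, and neither to a lower one. In the whole table, the genes listed higher and lower numbered 39 and 11 for focal adhesion and 25 and 19 for Rap1 signalling. They numbered 21 and 10 for Fc gamma R-mediated phagocytosis and 84 and 34 for pathways in cancer. For calcium signalling they numbered 20 and 29, for Ras signalling 19 and 21, for ECM-receptor interaction 27 and 5 and for phagosome 59 and 9. These pathways were picked out after their counts had been seen. Of the higher members, 5 have no pathway in the tables, including Itgal and both entries of Itgam.

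Cell type markers were read from 11 lists, also chosen with earlier results of these data known. For comparison, 49.4% of all listed genes rose and 17.2% fell, or 9.67% and 3.37% of the genes whose p-values were adjusted. Of 9 microglial markers 8 rose, and their summed level went from 294.8 TPM in sham to 2694 TPM in stroke. Of 9 markers of infiltrating monocytes and neutrophils 5 were listed higher and 4 rose, from a sum of 8.15 to 22.4 TPM. Of 9 T and B cell markers 4 were listed higher and 3 rose, from a sum of 0.761 to 5.13 TPM, with Cd3d not detected in sham. Fibroblast markers rose in 4 of 6 cases, summing to 24.5 and 387.0 TPM over the 5 listed. Mural cell markers rose in 3 of 7, platelet markers in 1 of 5, Pf4, endothelial markers in 1 of 6, Cdh5, and astrocyte markers in 2 of 6, Gfap and Aqp4. Of 6 neuronal markers 5 were listed lower and 4 fell, from a sum of 2308 to 952.9 TPM. No oligodendrocyte marker of 5 was listed. The sham tissue held the thalamic markers Calb2, Tcf7l2, Slc17a6, Gbx2 and Rora at 791.7, 64.4, 63.7, 36.2 and 22.3 TPM, and all but Calb2 fell. The part of these markers in the results above was not tested, and in bulk tissue fewer cells of a type and less RNA per cell cannot be told apart.

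Promoters of the members were searched for 2 motifs on both strands, the 7-letter core GAGGAAG of sites for PU.1, a transcription factor of myeloid cells, and the CArG box of serum response factor, which drives many actin genes. RefSeq promoter windows of the build GRCm38.p6, 250 bases before to 50 after a gene start, were found for 41 of the 52 member names. The PU.1 core was present for 9 of 41 members (22.0%), for 8 of 26 that rose (30.8%) and for 1 of 7 that fell (14.3%, Chrm3), against 15.4% of all 27025 genes with a window. The 8 were Arpc1b, Gng12, Iqgap2, Itga11, Itgam, Itgb7, Lpar5 and Vav1. A CArG box was present only for Tiam1 among the members (2.44%), against 1.81% of all genes. A match is a description of letters and not of binding. The bases before the start are shown for 3 of the genes with a match there. Of these, Itgam and Iqgap2 were also listed for mmpp and Vav1 had the smallest q-value of the exchange factors. Gng12, Itga11 and Chrm3 also had a match before the start, Chrm3 with 2, and are not shown. In Arpc1b, Itgb7 and Lpar5 the match lay after the start. Capitals mark the core, which reads GAGGAAG on the gene's strand in Itgam and Vav1 and as its reverse complement in Iqgap2.
Itgam, chr7:128062390-128062639, plus strand, GRCm38.p6: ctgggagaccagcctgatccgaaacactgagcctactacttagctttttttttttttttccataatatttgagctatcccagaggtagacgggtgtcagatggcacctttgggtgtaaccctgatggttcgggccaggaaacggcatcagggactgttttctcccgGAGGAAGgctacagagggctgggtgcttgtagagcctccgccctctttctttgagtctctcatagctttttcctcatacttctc
Vav1, chr17:57278850-57279099, plus strand, GRCm38.p6: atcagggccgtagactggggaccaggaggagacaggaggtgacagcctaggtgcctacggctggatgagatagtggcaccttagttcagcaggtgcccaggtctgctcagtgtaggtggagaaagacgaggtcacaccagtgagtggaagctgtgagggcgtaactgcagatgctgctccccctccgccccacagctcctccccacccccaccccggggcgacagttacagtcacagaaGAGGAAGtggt
Iqgap2, chr13:95891923-95892172, minus strand, GRCm38.p6: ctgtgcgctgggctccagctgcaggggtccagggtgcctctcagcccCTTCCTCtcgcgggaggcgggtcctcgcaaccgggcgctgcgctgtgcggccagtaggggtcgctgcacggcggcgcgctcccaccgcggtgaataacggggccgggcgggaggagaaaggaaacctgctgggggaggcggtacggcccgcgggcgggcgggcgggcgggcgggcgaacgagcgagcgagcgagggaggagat
In Itgam the core spans bases 84 to 78 before the start, in Vav1 bases 11 to 5, and in Iqgap2 bases 203 to 197.

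The second comparison asked how the same genes differed between mmpp and stroke. No member passed a q-value of 0.05 in the authors' deposited table, nor 0.1, and 11 were listed at an unadjusted p under 0.05. Of all 1021 genes listed, 8 passed (0.784%, or 0.0408% of the 19616 genes whose p-values were adjusted). Of the 11 listed members 9 were lower in mmpp and 2 higher, with q-values between 0.471 and 0.823, while 74.1% of all genes listed there were lower. All further values of this comparison are therefore listings.

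The 8 entries listed in both tables were all higher in stroke than in sham and lower in mmpp than in stroke. Both comparisons use the same stroke samples, which by itself favours opposite directions, so the sets of values are given side by side and no more is read from them. In all, 815 genes were in both tables, and the share of them that took these directions is not given here. In the order sham, stroke, mmpp, the authors' means of Actb were 882.9, 2632 and 1301 TPM (q = 0.733 for mmpp against stroke). Arpc3 had 295.0, 802.0 and 387.2 TPM (q = 0.651), and Msn 12.8, 123.4 and 47.9 TPM (q = 0.574), in the authors' deposited tables. Their mmpp means were 1.47, 1.31 and 3.74 times the sham means.

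Integrin chains made up 4 of the 8 entries. Itgam had authors' means of 3.99, 47.4 and 20.1 TPM in sham, stroke and mmpp under its first identifier (q = 0.726) and of 1.17, 12.96 and 4.97 TPM under its second (q = 0.720). Itgal had 0.213, 2.08 and 0.973 TPM (q = 0.823) and Itga4 0.744, 1.94 and 0.914 TPM (q = 0.728) in the authors' deposited tables. The scaffold gene Iqgap2 had 0.546, 2.61 and 0.890 TPM (q = 0.632). Over the 8 entries, which count Itgam under both identifiers, the mmpp mean lay between 34.1% and 49.4% of the stroke mean. It was above the sham mean in 8 of 8, from 1.23 times that mean for Itga4 to 5.04 times for Itgam. The difference between mmpp and sham was not tested. The share of all genes in both tables with an mmpp mean above sham is not given here. No beta chain was listed for mmpp against stroke.

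**Figure D3:**
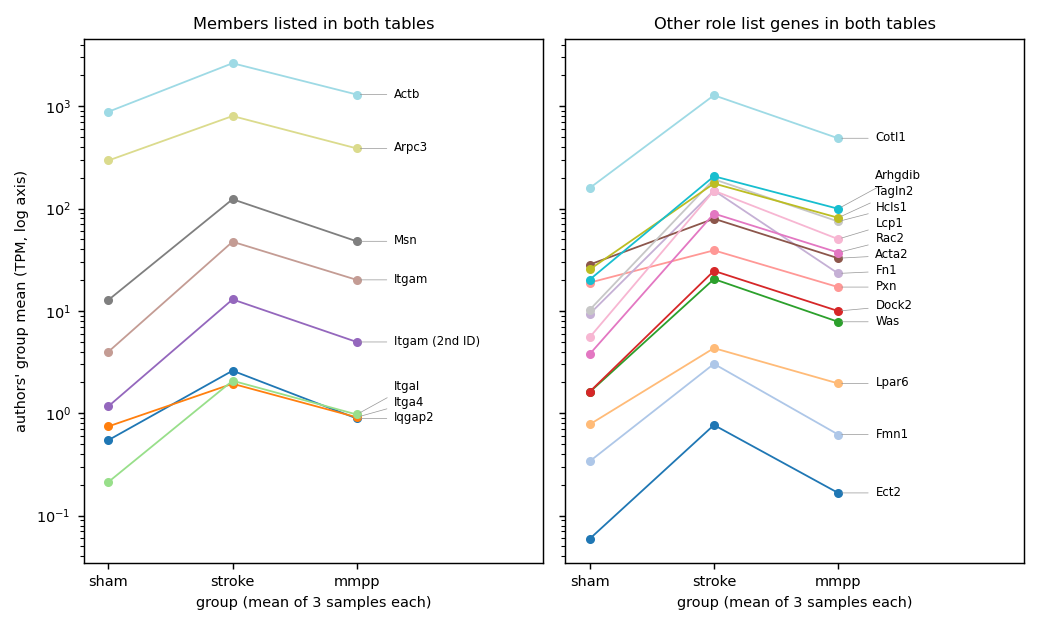
Group means in TPM (log axis) in sham, stroke and mmpp for the 8 members listed in both tables (left) and for the 14 other role list genes listed in both (right), 1 line per entry and no error available. Each line peaks in stroke, and on the left all mmpp points lie above sham. The tables share the stroke samples, so the peak shape is in part set by the selection.

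Another 3 members were listed for mmpp against stroke alone. Ppp1r12a, the targeting subunit of myosin phosphatase, was at 7.79 TPM in stroke and 2.90 TPM in mmpp (q = 0.471, authors' deposited table), the smallest q-value of any member there. The platelet-derived growth factor gene Pdgfd was at 1.08 and 2.26 TPM (q = 0.787), and the prothrombin gene F2 at 0.0138 and 0.459 TPM (q = 0.741), too near 0 for a fold, in the authors' deposited table.

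Of the genes on the role lists that are not members, 14 were listed in both tables. All were higher in stroke and lower in mmpp, directions that the shared stroke samples favour. How many of all genes in both tables did so is not given here. Of the 14, only the formin gene Fmn1 passed, at 0.340, 3.04 and 0.620 TPM in sham, stroke and mmpp (q = 0.0219 for mmpp against stroke, authors' deposited table). The other 13 had q-values of 0.430 to 0.816. Among them Lcp1 was at 5.54, 149.4 and 50.3 TPM, Cotl1, of coactosin, at 158.9, 1280 and 486.3 TPM, and Dock2 at 1.63, 24.6 and 9.97 TPM in the authors' deposited tables. Pxn was the exception in level, with a mean of 17.1 TPM in mmpp, below its 18.9 TPM in sham. Markers of other cells were listed lower in mmpp for 1 of 9 microglial genes, Sall1, for 1 of 9 monocyte and neutrophil genes, Ccr2, for the T cell gene Cd4, for 2 of 6 fibroblast genes, Col1a1 and Dcn, and for 1 of 7 mural genes, Acta2. The thalamic markers Slc17a6 and Gbx2 were listed higher. All of these had q-values above 0.05, and their part in these listings was not tested.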

How the data were processed

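RNA of 9 thalamus samples was sequenced, 3 per group. Per the submitters' processing notes, the tools were Bowtie2 2.2.3, TopHat2 2.0.12 and HTSeq 0.6.0 and the build was GRCm39, with no role given. The program that tested the groups and the setting for strand are not given in the sources used here. Per the file headers, the authors deposited for each gene the group means in TPM, the log2 fold change and both a p-value and a q-value. The log2 fold change was checked to equal the log2 ratio of the means, with no pseudocount. The refit that the design foresaw needs values per sample, so the authors' deposited values are described instead. The q-values were checked to be a Benjamini-Hochberg adjustment over 20804 and 19616 genes, from the rank that each p and q imply, a step tested on simulated data.

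Folds, sums, counts, shares and motif matches were computed with Python 3.11.15, pandas 2.3.3 and numpy 2.4.6. No further test was run. Gene names come from the tables. Named genes were the listed integrin chains, actins and Arp2/3 subunits, members listed in both tables, and up to 3 members per role list and direction with the smallest q-value. Genes of the lists that are not members were picked after their values had been seen. Others were named to account for the remaining members, of which 1 is not reported here by name. Members, role lists and marker lists were chosen with earlier results of these data known. Where nothing says that samples came from separate animals, p-values measure only the spread between these samples. Alternatives were other thresholds, a limit on low values, a pseudocount of 1, the composition shift and other ways to pick members. RefSeq promoters were matched by symbol, and no coordinate was converted between builds. Protein sequences were not used here.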

Additional observations from a re-analysis of the deposited data

How the results depend on the processing

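In stroke against sham the 33 members that rose numbered 28 to 34 under the 8 alternatives, and the 9 that fell numbered 5 to 11. The latter count left the range of 1.5 times only with a q-value under 0.01, where it was 5. On the log2(TPM + 1) scale with a log2 fold of at least 1 the counts were 29 and 7, and with the composition shift removed 33 and 8. Removing the shift raises every higher fold, so the count of 33 could not drop under that alternative. In mmpp against stroke 0 members passed, and 11 did at an unadjusted p under 0.05 and 2 at one under 0.01. Of the 8 entries listed in both comparisons, 5 were left on the log2(TPM + 1) scale with a log2 fold of at least 1 in both, and 1 at an unadjusted p under 0.01 in both. No paired analysis was possible because the tables hold group means only. For the same reason, leaving out a replicate, DESeq2 size factors and a filter on low counts were not run. Means below about 1 TPM give folds of uncertain size, and the depth behind them is unknown.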

Other observations

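Genes of the same KEGG pathway that the tables also assign to axon guidance, and the genes excepted by name, were not among the members. In stroke against sham the excepted genes Itgax, a further alpha chain that pairs with Itgb2, Rac2, the Rac of blood cells, and Fn1, the matrix protein fibronectin, rose by 23.9, 23.6 and 16.0 times (authors' deposited table). Itgax went from 1.44 to 34.5 TPM, a stroke mean between those of both Itgam entries. Of the axon guidance genes, the myosin light chain gene Myl12a rose 3.39-fold, from 55.7 to 188.8 TPM, and Rac3 and the PI3 kinase subunit gene Pik3ca fell, to 41.2 and 2.85 TPM (authors' deposited table). Pak1, Limk2 and Src, kinases that act on actin and adhesions, were listed lower with q-values of 0.0845, 0.146 and 0.126. Sham, stroke and mmpp means were 9.37, 150.0 and 23.2 TPM for Fn1 and 3.79, 89.3 and 37.2 TPM for Rac2 (q = 0.510 and q = 0.764 for mmpp against stroke, authors' deposited tables).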
